A study of Rattus norvegicus with 12 samples.

Results

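Estradiol was compared with no estradiol across a whole 2-by-2 experiment in the rat uterus, so that 6 rats given the hormone stood against 6 rats not given it. All 12 of the 12 arrays of the series entered, and the genes were those measured by a probe set (the set of short array sequences that reports 1 transcript) with exactly 1 gene symbol: 15310 of the 29214 probe sets on the array, for 14506 genes. The estradiol arm held 3 rats given 17β-estradiol (E2) at 4 µg/kg per day and 3 rats given the same estradiol together with 3-methylcholanthrene (3-MC) at 15 mg/kg per day (E2+3-MC). The arm without estradiol held 3 rats given the DMSO vehicle and 3 rats given 3-MC alone. All animals, controls included, were young adult female Lewis rats whose ovaries had been removed, all were dosed for 3 days, and the uterus was taken 24 hours after the last dose, 1 rat to an array. Because 3 rats in each arm also received 3-MC, a ligand of the aryl hydrocarbon receptor, the fit carried 3-MC as a covariate and the estradiol difference is an average over rats with and without it.

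Estradiol acts in the uterus through estrogen receptors, nuclear receptors that bind DNA or other transcription factors such as AP-1 and change transcription once the hormone is bound. In the castrated animal it restores a thin, quiet uterus: the epithelium divides and secretes, the stroma takes up water and leukocytes, and the muscle layer gains excitability. Complement C3, the calcium-binding protein calbindin-D9k and lactoferrin are classical readouts of its action in rodents, while clusterin marks the regressed epithelium.

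The uterine identity of the tissue was visible in every arm. The receptors Esr1 and Pgr and the smooth muscle actin Acta2 lay far above the dim limit of 6.47, the 30th percentile of the probe sets' mean levels on the scale used throughout, quantile-normalized log2(intensity + 16). The median deposited intensity of the arrays ran from 86.3 to 124. A pair of arrays stood apart. The log2 values of vehicle rat 1 spread most, with an interquartile range of 2.70. The arrays with estradiol had 1.99 to 2.35 and the other arrays without it 1.87 to 2.05, a difference that quantile normalization removes. E2+3-MC rat 2 was the lowest of the estradiol arm on the first principal component, at 12.1 against 25.6 to 39.8 for the other 5. That component held 66.7% of the variance and separated the arms, since the rats without estradiol lay between -36.3 and -23.8. Without these 2 arrays 6672 probe sets passed the test in place of 5533 with them, and where a named gene has either as its distant rat, its difference without both arrays is given beside it or in the closing section. No arrays held identical values.

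Many genes differed between the arms, mostly by small amounts. Of the 15310 probe sets, 5533 were called, 36.1%, at an adjusted p under 0.05 (limma, Benjamini-Hochberg over all probe sets), with 2691 higher and 2842 lower. Counted by gene, 2539 genes rose, 17.5% of the 14506, and 2702 fell, 18.6%. The median size of a called difference was 0.45 on the log2 scale and 3468 of the 5241 called genes, 66.2%, differed by less than 1.5-fold. The large changes leaned upward: 495 genes rose and 174 fell by 2-fold or more, 127 rose and 27 fell by 4-fold or more, and 22 rose and 1 fell by 16-fold or more. The levels of the 6 rats with estradiol did not overlap those of the 6 without for 2846 probe sets, 18.6% of all, of which 2811 were called. The median difference over all genes was -0.03. How the smaller differences divide between rises and falls depends on the scale of the arrays: after median centring in place of quantile normalization 2587 probe sets rose and 1371 fell, 65.4% higher among the called, against 48.6% here.

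A gene that was not called is not shown to be unchanged. The 95% interval of the difference lay within -0.2 to 0.2 for 670 genes, 4.62% of those tested, while 9265 genes were not called. The brightest of those 670 were ribosomal protein genes and smooth muscle actin. Rps29 differed by 0.02 ± 0.06 (SE), Rps12 by 0.01 ± 0.06 and Acta2, the main actin of the muscle layer, by -0.01 ± 0.08. Those intervals hold for the quantile-normalized scale. Over 24 other settings Acta2 ran from -0.04 to 0.20, Rps12 from -0.006 to 0.21 and Rps29 from -0.005 to 0.18, and none was called.

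The largest rises were genes of epithelial secretion, proteolysis and cell contact. Prss32, a serine protease, had levels of 10.87, 12.03 and 12.28 (lowest, median and highest) in the 6 rats with estradiol, against 4.81, 4.97 and 5.26 in the 6 without, a difference of 6.79 ± 0.17 (SE, adjusted p 4.29e-12, limma). The arms did not touch. The whole range without estradiol lay under the dim limit, and the added 16 makes the fold of so dim a gene too small. Cuzd1, a CUB-domain membrane protein, spanned 11.94 to 12.34 around a median of 12.26 with estradiol, against 5.28 to 6.57 around 5.62 without. Its difference was 6.42 ± 0.18 (adjusted p 8.17e-12, limma). Mmp7 (matrilysin), a metalloproteinase made by glandular epithelium, spanned 11.26 to 12.44 around 12.33 with estradiol, against 5.34 to 6.52 around 5.61 without, a difference of 6.36 ± 0.23 (adjusted p 1.19e-10). The arms did not overlap for any of these 3 genes, but the largest rises were taken only from genes without overlap. In whole tissue, more cells of a type and more RNA per cell cannot be told apart.

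**Figure D1:**
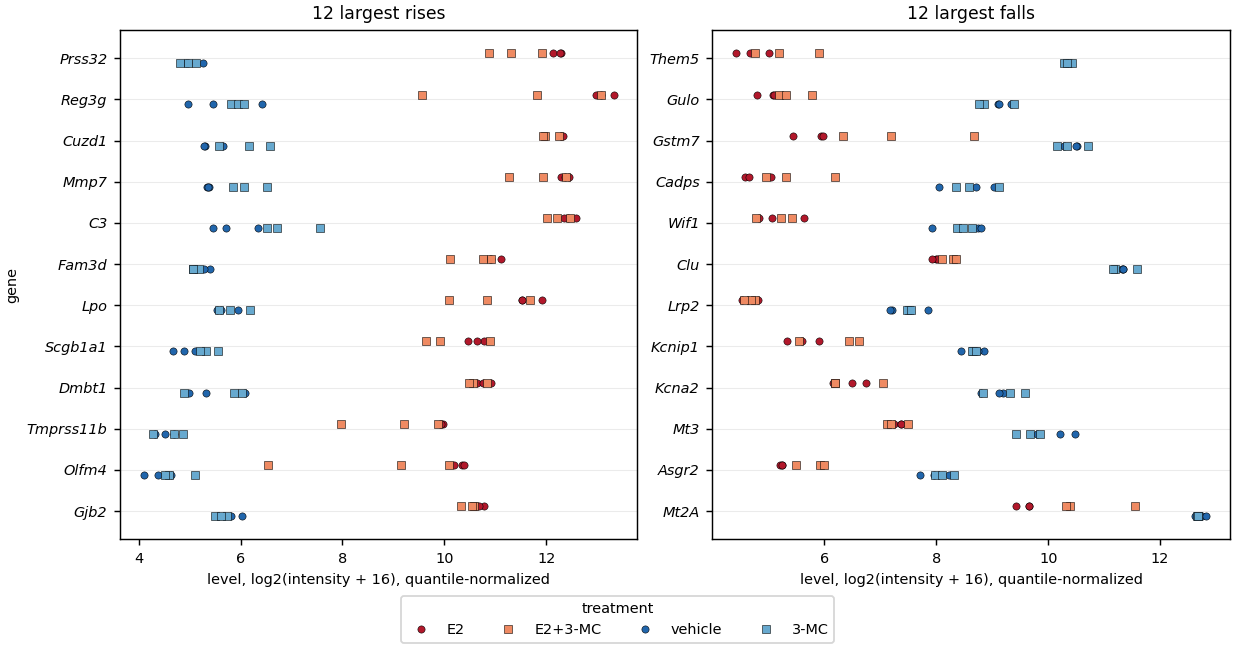
Levels in each of the 12 rats for the 12 largest rises (left) and 12 largest falls (right) among called genes, on the x axis as quantile-normalized log2(intensity + 16), 1 point per rat, with the estradiol arm in red and orange and the arm without in blue. The arms do not overlap for any of the 24 genes because only genes without overlap were taken. E2+3-MC rat 2 is the lowest red or orange point for each of the 12 rises, among them Reg3g (9.57) and Olfm4 (6.55). The same rat is the highest red or orange point for most of the 12 falls, but not for Wif1 and Lrp2.

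Proteins of mucosal defence made up much of the rest of that group. Complement C3 had levels of 12.01, 12.39 and 12.59 with estradiol, against 5.47, 6.43 and 7.56 without, a difference of 5.95 ± 0.25 (adjusted p 4.33e-10). Reg3g, an antibacterial lectin, ranged from 9.57 to 13.32 around 13.02 with estradiol, against 4.98 to 6.42 around 5.88 without, a difference of 6.53 ± 0.50. The lowest rat with estradiol was E2+3-MC rat 2 and the next was at 11.82; without that rat and vehicle rat 1 the Reg3g difference was 6.81. Lpo (lactoperoxidase, which makes an antimicrobial oxidant) rose by 5.49 ± 0.24, Scgb1a1 (uteroglobin) by 5.27 ± 0.21 and Dmbt1, a mucosal scavenger receptor, by 5.17 ± 0.20. Of the 22 measured secreted antimicrobial and defence proteins 13 rose and 1 fell, with a median difference of 0.90 against -0.03 over all genes. The complement list had 11 of 19 members higher and 1 lower, with a median of 0.51; Cfi, the protease that inactivates C3b, rose by 3.16 ± 0.10 and Cd55, which protects cells from complement, by 2.41 ± 0.20. The member that fell was Clu (clusterin).

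Gjb2 (connexin 26), a gap junction protein of uterine epithelium, had the smallest adjusted p of the rises. Its 6 rats with estradiol lay between 10.32 and 10.77 around 10.60, against 5.49 to 6.03 around 5.68 without, a difference of 4.88 ± 0.09 (adjusted p 9.64e-14). The difference was 4.87 in rats that also had 3-MC and 4.89 in rats that had none. Fam3d and Fam3b, secreted cytokine-like proteins, rose by 5.61 ± 0.12 and 4.64 ± 0.12, and Plet1, a surface protein of epithelia, by 3.53 ± 0.10. Olfm4, a secreted glycoprotein of crypt epithelium, was the least even of the large rises: 6.55, 10.14 and 10.39 with estradiol, against 4.10, 4.56 and 5.10 without. The single rat at 6.55 was E2+3-MC rat 2, and Olfm4 differed by 4.89 ± 0.50 with all rats and by 5.28 without it and vehicle rat 1. Tmprss11b, a membrane serine protease, rose by 4.92 ± 0.27, or 5.12 without both arrays. E2+3-MC rat 2 was the lowest rat with estradiol for each of the 12 largest rises without overlap, Tmprss11b among them.

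The largest falls were metabolic and signalling genes that the castrated uterus expresses at a clear level. Them5, an acyl-CoA thioesterase, had levels of 4.42, 4.89 and 5.91 in the 6 rats with estradiol, against 10.28, 10.33 and 10.42 in the 6 without, a difference of -5.35 ± 0.17 (adjusted p 2.57e-11). The 6 rats without estradiol lay within a narrow band, and every rat with it was under the dim limit. Gulo, the enzyme of the last step of vitamin C synthesis, spanned 4.80 to 5.79 with estradiol, against 8.77 to 9.39 without, a difference of -3.88 ± 0.15. Clu spanned 7.92 to 8.36 with estradiol, against 11.15 to 11.59 without, and fell by 3.21 ± 0.09. Wif1, a secreted inhibitor of Wnt ligands, fell by 3.33 ± 0.17 and Lrp2 (megalin), an endocytic receptor, by 2.80 ± 0.11. Cadps, which primes vesicles for exocytosis, differed by -3.52 and the potassium channel Kcna2 by -2.67. The channel-interacting protein Kcnip1 differed by -2.77 and the asialoglycoprotein receptor subunit Asgr2 by -2.53. The largest falls, like the largest rises, were taken only from genes without overlap between arms. Among the 12 largest falls, E2+3-MC rat 2 was the highest rat with estradiol for all but Wif1 and Lrp2. The other probe set of Kcnip1 was also called, at -1.83.

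Detoxification genes were also among the falls. Gstm7, a glutathione S-transferase of the mu class, had 5.44, 6.16 and 8.67 with estradiol, against 10.16, 10.42 and 10.71 without, a difference of -3.82 ± 0.35. The highest rat with estradiol, at 8.67, was E2+3-MC rat 2, and the Gstm7 difference was -4.13 without vehicle rat 1 and E2+3-MC rat 2. Gstm1 fell by 2.24 ± 0.18 and Gstm5 by 2.13 ± 0.15; mu-class genes are close copies, so that probe sets can take up signal of a neighbour. Metallothioneins, small zinc-binding proteins, fell as well: Mt3 by 2.61 ± 0.13 and Mt2A by 2.53 ± 0.23, with both Mt2A probe sets called. In the opposite direction Gpx2, a glutathione peroxidase of epithelia, rose by 2.74 ± 0.13. Of the 40 measured glutathione and antioxidant genes 16 rose and 13 fell, with a median of 0.01. That split depended on the scale: 16 rose and 7 fell after median centring (median 0.21), and 14 rose and 8 fell on the deposited scale (median 0.13).

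Classical readouts other than C3 and Clu spread widely in size. S100g (calbindin-D9k) had 11.86, 11.91 and 12.15 with estradiol, against 6.88, 7.39 and 8.46 without, a difference of 4.41 ± 0.17 (adjusted p 2.22e-10). Fos, the AP-1 subunit that is induced within hours of a dose, was still higher a day after the last one: 6.88, 8.22 and 8.35 with estradiol, against 5.41, 5.52 and 6.02 without, a difference of 2.41 ± 0.19. Igf1, a growth factor that stroma supplies to epithelium, rose by 1.26 ± 0.13 with no overlap between arms. The progesterone receptor Pgr, the creatine kinase Ckb and the polyamine enzyme Odc1 rose by only 0.39 ± 0.10, 0.49 ± 0.15 and 0.33 ± 0.10, and the arms overlapped for all 3; Odc1 was not called after median centring or on the deposited scale, and Ckb was not called without the 3-MC covariate. The estrogen receptor gene Esr1 fell, with 10.44, 10.69 and 10.71 with estradiol, against 11.17, 11.23 and 11.55 without, a difference of -0.63 ± 0.08 (adjusted p 2.28e-05), and this call too was lost after median centring and on the deposited scale. Vegfa, the vascular growth factor that rises within hours of a dose in the rodent uterus, was lower at this time by 0.67 ± 0.09. Of the 30 genes listed as estradiol-responsive in the uterus 18 rose and 6 fell; the list was drawn from known responses and its direction is no independent evidence.

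The largest estradiol differences were often smaller in rats that also received 3-MC. The strata, rats with 3-MC (E2+3-MC minus 3-MC) and rats without it (E2 minus vehicle), share no array. Over the 14506 genes the differences of both strata had a Pearson correlation of 0.894 and a Spearman correlation of 0.754, as a description across genes. Of the 127 genes that rose by 4-fold or more, 112 rose less in rats with 3-MC, with a median difference of 2.55 against 2.98 in rats without it. Without E2+3-MC rat 2 these became 103 genes with medians of 2.76 and 3.00. Of the 27 that fell by 4-fold or more, 22 fell less in rats with 3-MC, with medians of -2.25 and -2.68. Without E2+3-MC rat 2 these became 20 genes with medians of -2.39 and -2.70. Such counts describe genes measured in the same rats, which are not replicates. The share of all genes with a smaller difference in rats with 3-MC was not counted. For no single probe set did the difference between strata pass the test: 0 of 15310 were called by limma, 0%, the smallest adjusted p was 0.553, and 831 had an unadjusted p under 0.05, 5.43%. With E2+3-MC rat 3 left out 3 were called.

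**Figure D2:**
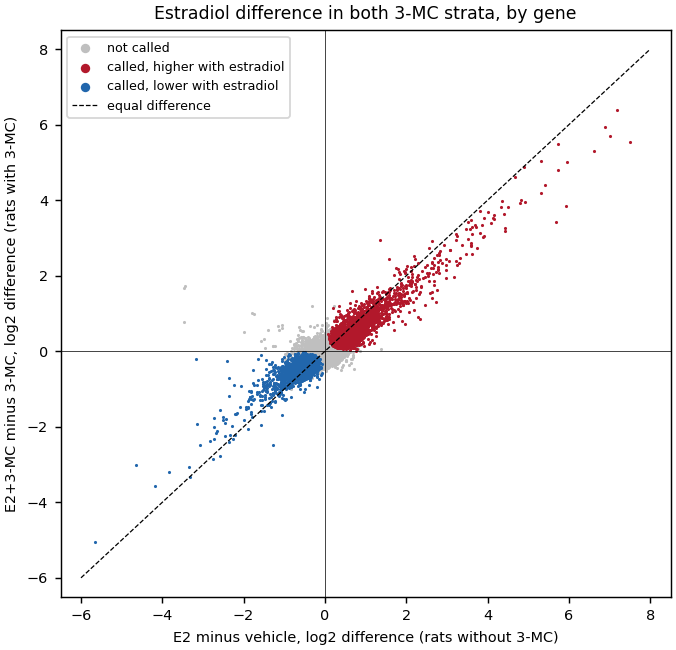
Estradiol difference of each of the 14506 genes in rats without 3-MC (x axis, E2 minus vehicle, log2) and with it (y axis, E2+3-MC minus 3-MC, log2), with called genes of the pooled fit in red and blue and the dashed line at equal differences. The red points at the upper right lie mostly below the line (112 of the 127 rises of 4-fold or more).

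Pooling the strata added genes of modest size. Of the 5241 called genes, 2234 were also called in each stratum alone, 1559 in the rats without 3-MC and not in those with it, 335 the other way round and 1113 in neither. The largest rises among those 1113 were Pla2g2d, a secreted phospholipase, with 8.16, 8.45 and 8.54 with estradiol, against 6.79, 7.41 and 8.51 without, and a difference of 0.83 ± 0.24 (adjusted p 0.0126); Stom, a membrane scaffold, at 0.68 ± 0.20; Mgll, a lipase that ends endocannabinoid signals, at 0.67 ± 0.23; and Mmp20, a metalloproteinase of enamel, at 0.66 ± 0.18. The largest falls were Ak4, an adenylate kinase of mitochondria, at -0.83 ± 0.22, Luc7l3, a splicing factor, at -0.67 ± 0.16, Thy1, a surface protein of fibroblasts, at -0.65 ± 0.19 and Magi1, a junction scaffold, at -0.63 ± 0.18. The arms overlapped for all 8. For Luc7l3, vehicle rat 1 lay at 9.71 and the next lowest rat without estradiol at 10.74; without vehicle rat 1 and E2+3-MC rat 2 the difference was -0.91. Mgll kept its call in 14 of 24 other settings. Thy1 was not called on the deposited scale or after median centring (adjusted p 0.138 and 0.182), Stom not on the deposited scale (0.107) and Luc7l3 not after median centring (0.0561), all by limma.

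Gene lists were read against the shares over all genes, 17.5% higher and 18.6% lower. The interferon-stimulated genes, antiviral effectors that cells make when interferon signals through the STAT factors, stood highest, with 33 of 37 higher, none lower and a median difference of 1.01. Mx1, a GTPase that blocks viral replication, had 8.59, 8.93 and 9.17 with estradiol, against 5.63, 5.82 and 7.27 without, a difference of 2.66 ± 0.28 (adjusted p 5.43e-06). Isg15, a ubiquitin-like modifier, rose by 2.11 ± 0.14, Ifit3, which binds foreign RNA, by 2.10 ± 0.18 and Zbp1, a nucleic acid sensor, by 2.04 ± 0.13, none with overlap between arms. The list's mean level lay between 8.23 and 8.47 in the 6 rats with estradiol, against 7.18 to 7.62 in the 6 without.

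**Figure D3:**
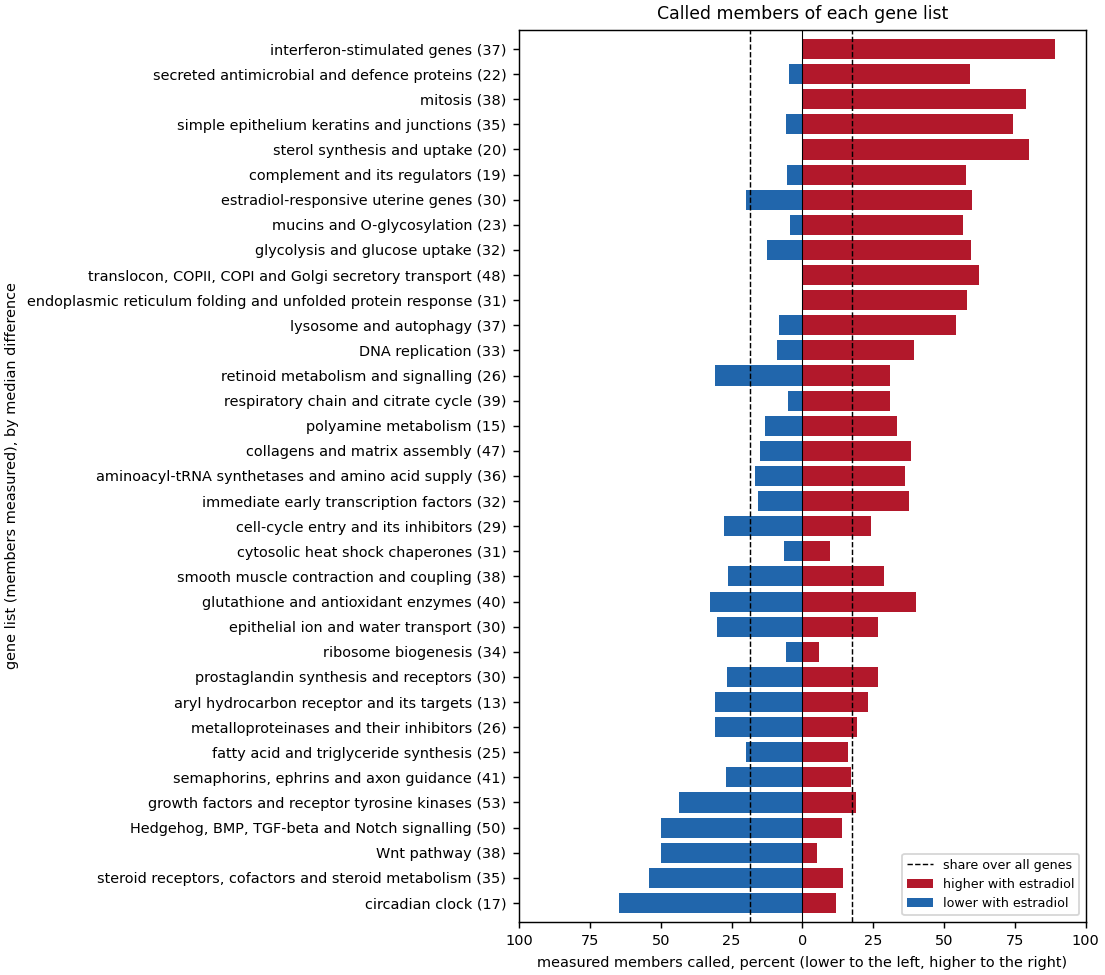
Share of the measured members of each of the 35 pathway lists that were called higher (red, to the right) or lower (blue, to the left) with estradiol, in percent, lists ordered by median difference, with dashed lines at the shares over all genes (17.5% and 18.6%). Interferon-stimulated genes reach 89.2% higher at the top and clock genes 64.7% lower at the bottom.

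The promoter of Ifit3 is shown for the element that such genes share, GAAA followed by 2 bases and a further GAAA. The window, 5′ to 3′ on the coding strand, comes from RefSeq promoters of build GRCr8, which run from 250 bases before to 50 after each start; 11968 of the 14506 genes matched one, 82.5%. It lies on the + strand at chr1:241527257-241527316, and capitals mark the match, which stands on the opposite strand with its first letter at -44 relative to the start.
Ifit3: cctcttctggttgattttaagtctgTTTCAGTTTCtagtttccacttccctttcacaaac
Of the 27 interferon-stimulated genes with a promoter, 17 held this element on either strand, against 3.41% of all 11968. Those 27 are 73.0% of the list, under the 80% that a comparison of the whole list needs, so the share is void as a property of the list and describes these 27 alone.

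Genes of mitosis rose together from a dim base. Of the 38 measured members 30 rose and none fell, with a median of 0.68, and 21 of the 38 had a mean below the dim limit. Cdk1, the kinase that drives entry into mitosis, had 7.10, 7.73 and 8.23 with estradiol, against 4.83, 5.32 and 6.01 without, a difference of 2.32 ± 0.19 (adjusted p 5.5e-07). Kif23, a motor of cytokinesis, rose by 1.97 ± 0.20 and Prc1, which bundles spindle microtubules, by 1.49 ± 0.20, with no overlap for either. E2+3-MC rat 1 was the highest for Prc1, at 8.46 against 7.60 for the next rat. In the strata, 26 of the 38 were called in rats with 3-MC and 9 in rats without, a difference in counts that was not tested. Over all probe sets the shares called were 17.9% in rats with 3-MC and 28.3% in rats without. On the deposited scale 19 rose. DNA replication genes followed less evenly, 13 of 33 higher and 3 lower with a median of 0.21 (on the deposited scale 4 and 0): the origin licensing factor Cdc6 rose by 2.15 ± 0.13 without overlap, while the helicase subunit Mcm6 rose by 0.67 ± 0.18 with it. Pcna, the sliding clamp of DNA polymerase, rose by 0.45 ± 0.10. Genes of cell-cycle entry and its inhibitors moved both ways, with 7 of 29 higher, 8 lower and a median of 0.05 (5 and 2 after median centring). The inhibitor Cdkn1a (p21) had 8.73, 9.45 and 9.89 with estradiol, against 6.80, 7.20 and 8.09 without, a difference of 2.07 ± 0.18, while the inhibitor Cdkn1c (p57) fell by 0.89 ± 0.18, or 0.71 without the arrays vehicle rat 1 and E2+3-MC rat 2.

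Promoters of Cdk1, Kif23 and Prc1 are shown for the CHR element (TTTGAA or TTCGAA), which the DREAM complex binds in resting cells and MuvB with B-MYB and FOXM1 in dividing ones. Capitals mark the element, and the windows are from RefSeq, build GRCr8, with the coding strand 5′ to 3′: Cdk1 at chr20:19265196-19265307 (+), Kif23 at chr8:71320633-71320688 (-) and Prc1 at chr1:143659438-143659493 (+).
Cdk1: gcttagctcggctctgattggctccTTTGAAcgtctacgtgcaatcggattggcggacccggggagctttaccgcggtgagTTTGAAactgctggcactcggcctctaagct
Kif23: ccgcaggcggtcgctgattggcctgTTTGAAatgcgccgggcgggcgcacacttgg
Prc1: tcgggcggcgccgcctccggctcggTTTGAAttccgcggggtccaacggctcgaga
The elements start at -72 and -16 for Cdk1, -79 for Kif23 and -18 for Prc1, relative to the annotated start. Of the 31 mitosis genes with a promoter, 81.6% of the list, 21 held a CHR element, 67.7%, against 16.7% of all genes with a promoter, and 74.2% held a CCAAT box against 38.3%. The element was not more frequent among called genes at large: 16.5% of those that rose and 12.7% of those that fell held it. The lists were chosen by function and not by promoter, and a match describes letters, not binding.

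The machinery of secretion rose broadly and by little. Of the 48 measured genes of the translocon, the COPII and COPI coats and the Golgi, 30 rose and none fell, with a median of 0.31, and of the 31 genes of folding in the endoplasmic reticulum 18 rose and none fell, with a median of 0.28. Ssr4, a subunit of the translocon-associated complex, had 9.46, 10.02 and 10.21 with estradiol, against 8.45, 8.64 and 9.31 without, a difference of 1.20 ± 0.13 (adjusted p 7.16e-06). Rpn2, of the enzyme that attaches N-glycans, rose by 0.88 ± 0.10 without overlap. Pdia6 and P4hb, which form disulfide bonds, rose by 1.07 ± 0.14 and 0.89 ± 0.10, and Creb3l1, a transcription factor of secretory cells, by 0.98 ± 0.17 with overlap. Of the 31 cytosolic heat shock genes 3 rose and 2 fell, with a median of 0.01. After median centring the medians were 0.54 for transport, 0.48 for folding and 0.28 for the heat shock genes; the difference between the lists was not tested. Ribosome biogenesis had 2 of 34 higher and 2 lower. Of the 23 mucin and O-glycan genes 13 rose and 1 fell, with a median of 0.46. Galnt3, a Golgi enzyme that starts O-glycans on mucins, rose by 3.45 ± 0.10 (8.40 to 9.19 with estradiol, against 5.31 to 5.77 without), and B3gnt3, which extends them, by 3.02 ± 0.18.

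The element of endoplasmic reticulum stress, CCAAT, 9 bases and CCACG, which ATF6 reads together with NF-Y, was found in 8 of the 25 folding genes with a promoter (80.6% of the list), 32.0%, against 0.125% of all 11968; each such match contains a CCAAT box, which 84.0% of the 25 held. Calr (calreticulin) and Dnajc3, a co-chaperone, are shown; these 2 were chosen after their values were seen, from the 3 of the 8 holders that were called. Windows are from RefSeq, build GRCr8, with the match in capitals: Calr at chr19:40213117-40213178 (+), where it stands on the opposite strand from -232, and Dnajc3 at chr15:102432509-102432577 (+), from -133.
Calr: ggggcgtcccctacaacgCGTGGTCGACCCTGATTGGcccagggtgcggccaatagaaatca
Dnajc3: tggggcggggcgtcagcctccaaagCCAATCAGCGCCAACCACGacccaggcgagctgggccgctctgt
Calr rose by 0.57, Dnajc3 by 0.40 and Canx (calnexin) by 0.23 on the log2 scale. Dnajc3 kept its call in only 17 of 24 other settings. It lost the call on the deposited scale and when any of several single arrays was left out. The other 5 holders were not called, among them Hspa5 (BiP), the element's textbook holder, at 0.38 with an adjusted p of 0.0707 (limma). Hspa5 was called after median centring (0.76) and without vehicle rat 1 and E2+3-MC rat 2 (0.55).

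Sterol synthesis rose as a list. Of the 20 genes 16 rose and none fell, with a median of 0.56; 7 were called in the stratum with 3-MC (E2+3-MC minus 3-MC) and 14 in the stratum without. Over all probe sets 17.9% were called in the stratum with 3-MC and 28.3% in the stratum without. The difference in the sterol counts was not tested. Idi1, which makes the isoprenoid building block, had 9.37, 10.18 and 10.45 with estradiol, against 7.04, 7.41 and 7.87 without, a difference of 2.68 ± 0.15 (adjusted p 9.86e-09). The lanosterol demethylase Cyp51 rose by 1.58 ± 0.18 and Fdps, the farnesyl diphosphate synthase, by 1.08 ± 0.14. The sterol element, TCAC and CCAC with any base between, was found in 0 of the 16 promoters of the list and in 1.09% of all. With so low a share, an absence from 16 promoters does not set the list apart from other genes. Fatty acid and triglyceride genes gave no such list-wide shift, with 4 of 25 higher and 5 lower, and Thrsp, a lipogenic protein, at -1.69 ± 0.62, was called in only 9 of 24 other settings. Glycolysis leaned upward, 19 of 32 higher and 4 lower: Slc16a3 (MCT4), which exports lactate, rose by 2.30 ± 0.13, Ldha by 1.06 ± 0.10 (its other probe set by 1.72) and the phosphofructokinase Pfkp by 1.03 ± 0.11. The respiratory chain and citrate cycle had 12 of 39 higher and 2 lower with a median of 0.11, which became 18 and 1 with 0.35 after median centring and 6 and 1 with 0.27 on the deposited scale. Its coactivator Ppargc1a (PGC-1α) fell by 1.73 ± 0.09, with 5.98 to 6.54 with estradiol, against 7.83 to 8.06 without.

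Genes of the circadian clock leaned downward. Of the 17 measured, 11 fell and 2 rose, with a median of -0.53. Nr1d1 (REV-ERBα), the repressor arm of the clock, had 8.46, 8.75 and 9.84 with estradiol, against 9.87, 10.13 and 10.25 without, a difference of -1.17 ± 0.16 (adjusted p 4.96e-05), and Dbp, an output factor under direct clock control, fell by 0.75 ± 0.15 with overlap. Bhlhe40 (DEC1), which represses clock-driven transcription, had 9.26, 9.70 and 9.98 with estradiol, against 7.61, 7.68 and 8.56 without, and rose by 1.83 ± 0.14; the 8.56 was vehicle rat 1, with the next rat at 7.87, and without both doubted arrays Bhlhe40 differed by 2.00. Nfil3 (E4BP4), which opposes Dbp at the same sites, rose by 0.78 ± 0.14. Of the core activators, Bmal1 differed by -0.56, Clock by -0.22 and Npas2 by -0.73, and of the period and cryptochrome repressors Per3 by -0.75 and Cry2 by -0.53, all called. Clock itself had no direction after median centring (0.000885) and no call on the deposited scale, and Bmal1 was not called after median centring. Per1, Per2 and Cry1 were not called, at -0.19, -0.27 and -0.06. Per2 was called, at -0.35, without vehicle rat 1 and E2+3-MC rat 2. The highest Nr1d1 level with estradiol, 9.84, was that of E2+3-MC rat 2, and without both arrays Nr1d1 differed by -1.25. With all rats the estradiol difference of Nr1d1 was -1.50 in rats without 3-MC and -0.83 in rats with it. The hour of tissue collection is not given in the sources used here, and its part in these levels was not tested.

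**Figure D4:**
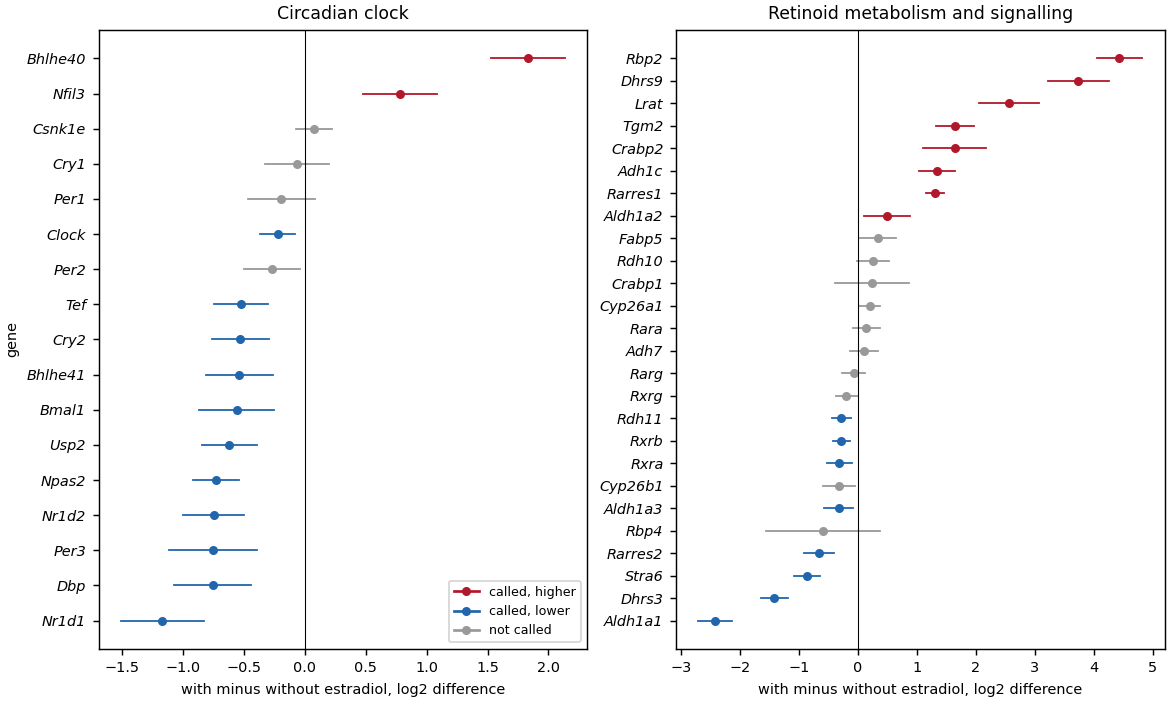
Estradiol difference of every measured clock gene (left, 17) and retinoid gene (right, 26), log2, with estradiol minus without, points with 95% intervals, called genes in red or blue and others in grey. Clock genes lie mostly left of 0 with Bhlhe40 (1.83) apart on the right, while retinoid genes spread to both sides, from -2.42 (Aldh1a1) to 4.44 (Rbp2).

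Retinoid genes moved in both directions within a single pathway. Rbp2, an intracellular retinol carrier, had 9.67, 10.73 and 11.31 with estradiol, against 6.03, 6.21 and 6.32 without, a difference of 4.44 ± 0.18 (adjusted p 3.66e-10). Dhrs9, which oxidises retinol, rose by 3.74 ± 0.24 and Lrat, which stores retinol as esters, by 2.57 ± 0.24. Aldh1a1, which makes retinoic acid, fell to 6.03, 6.40 and 7.02 with estradiol, against 8.76, 8.91 and 9.14 without, a difference of -2.42 ± 0.13. The retinoic acid carrier Crabp2 rose by 1.64 and Tgm2, a transglutaminase that retinoic acid induces, by 1.65, while Dhrs3, which reduces retinal, differed by -1.42 and the retinol uptake receptor Stra6 by -0.86, both called. Over the list 8 of 26 rose and 8 fell (8 and 4 after median centring). Steroid handling changed likewise: Hsd11b2, which inactivates glucocorticoids, rose by 2.87 ± 0.19, Hsd11b1, which regenerates them, by 1.05 ± 0.19, and Sult1a1, a sulfotransferase, fell by 1.53 ± 0.13, in a list of 35 with 5 higher and 19 lower (4 and 11 on the deposited scale).

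Signalling pathways of uterine patterning fell as lists. Of 38 Wnt genes 19 fell and 2 rose, with a median of -0.31; beside Wif1, Lgr5, a receptor of epithelial progenitors, fell by 1.38 ± 0.16 and the ligand Wnt2 by 1.05 ± 0.14, while Frzb, another secreted Wnt inhibitor, rose by 1.32 ± 0.20, or 1.44 without vehicle rat 1 and E2+3-MC rat 2. Of 50 Hedgehog, BMP, TGF-beta and Notch genes 25 fell and 7 rose, with a median of -0.28. Gli1, the Hedgehog effector and target, had 5.56, 5.83 and 6.30 with estradiol, against 7.95, 8.30 and 8.35 without, a difference of -2.35 ± 0.12 (adjusted p 6.4e-09), and Id3, a BMP target, fell by 1.53 ± 0.16. Ltbp2, a matrix protein of the latent TGF-beta binding protein family, rose by 2.63 ± 0.16, and the BMP antagonist Grem1 by 1.74 ± 0.23. Among 53 growth factors and receptor tyrosine kinases 23 fell and 10 rose (15 and 9 after median centring), and the rises included the EGF-family ligand Btc (betacellulin) at 1.94 ± 0.18 and Lif, the cytokine required for implantation in mice, at 1.56 ± 0.21.

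Epithelial genes rose. Of 35 keratin and junction genes 26 rose and 2 fell, with a median of 0.56. Elf3, an epithelial transcription factor, had 9.75, 10.39 and 10.56 with estradiol, against 6.55, 6.87 and 7.58 without, a difference of 3.35 ± 0.15 (adjusted p 9.47e-10). The desmosomal cadherin Dsc2 rose by 3.09 ± 0.24 and the keratin Krt8 by 2.44 ± 0.23, with E2+3-MC rat 2 lowest for Krt8 at 9.62 against 10.93 for the next; without both doubted arrays Krt8 differed by 2.74. Cftr, the chloride channel that sets the fluid of the lumen, rose by 4.18 ± 0.16 (8.95 to 9.97 with estradiol, against 5.28 to 5.81 without), and Clca1 by 3.16 ± 0.18, while Fxyd4, a regulator of the sodium pump, fell by 1.77 ± 0.14. The transport list as a whole was even, 8 of 30 higher and 9 lower. In muscle, Gja1 (connexin 43), which couples myometrial cells, rose by 1.07 ± 0.17 and phospholamban (Pln) fell by 1.09 ± 0.14, in a list of 38 with 11 higher and 10 lower. Of 30 prostaglandin synthesis and receptor genes 8 rose and 8 fell, with a median of -0.02. The receptors Ptgfr and Ptger3 fell by 1.93 ± 0.14 and 1.53 ± 0.14, while Slco2a1, which takes prostaglandins up, rose by 1.78 ± 0.19.

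Matrix genes moved both ways. Vcan (versican), a water-binding proteoglycan, rose by 1.85 ± 0.18 and Spon1 by 1.61 ± 0.14, while Efemp1 fell by 1.77 ± 0.20 and Postn (periostin) by 1.44 ± 0.15. Of 47 matrix genes 18 rose and 7 fell (20 and 3 after median centring). Timp1, an inhibitor of metalloproteinases, rose by 2.34 ± 0.14 and Timp3 fell by 1.10 ± 0.08. The promoter of the metalloproteinase Mmp7 holds an AP-1 site (TGACTCA or its reverse TGAGTCA), shown because Fos is a subunit of the factor that reads it: RefSeq, build GRCr8, chr8:13132938-13132994 (+), the site in capitals from -80 relative to the start.
Mmp7: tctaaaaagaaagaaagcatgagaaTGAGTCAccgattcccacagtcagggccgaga
The same letters stood in 5.29% of the 2097 genes with a promoter that rose, in 2.71% of the 2211 that fell and in 3.83% of all. Named genes that rose held them, and so did some that fell, such as Gstm5 and Mt2A. Whether Fos acts on Mmp7 was not tested. The palindromic estrogen response element, GGTCA and TGACC with 3 bases between, was in 3 of the 11968 promoters and in none of the called ones. So few matches cannot tell called genes from others. Binding sites far from the start lie outside these windows.

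Some marker lists of other cell types moved with the arms. Of 30 macrophage and dendritic cell markers 24 rose and none fell, with a median of 0.91, and their mean level per rat lay between 8.17 and 8.38 with estradiol, against 7.04 to 7.89 without. Fcgr3a, an Fc receptor, rose by 2.48 ± 0.22 and Cd68, a lysosomal protein of macrophages, by 1.57 ± 0.24, and the lysosomal protease Ctss by 1.39 ± 0.17. Of 23 endothelial markers 17 fell and 1 rose, with a median of -0.52 and mean levels of 7.46 to 7.65 with estradiol, against 7.97 to 8.21 without; the endothelial cadherin Cdh5 fell by 0.94 ± 0.08 and the VEGF receptor Kdr by 0.82 ± 0.08. Of 9 blood markers 3 fell and none rose, with a median of -0.09, and none was called in the stratum with 3-MC. Hbb, a globin, fell by 1.57 ± 0.34. The mean levels of the blood markers overlapped, at 6.99 to 7.49 with estradiol, against 7.39 to 7.92 without. Of 24 granulocyte and mast cell markers 6 rose and 2 fell, with a median of -0.02. The granulocyte proteins S100a9 and S100a8 rose by 2.46 ± 0.29 and 1.91 ± 0.35, with E2+3-MC rat 2 lowest in each, and by 2.88 and 2.41 without both doubted arrays; epithelia make them as well. T, B and NK cell markers had 1 of 25 higher and 1 lower; the one that rose was Klrk1 (NKG2D). The part of these cells in the interferon, lysosome and complement lists was not tested.

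**Figure D5:**
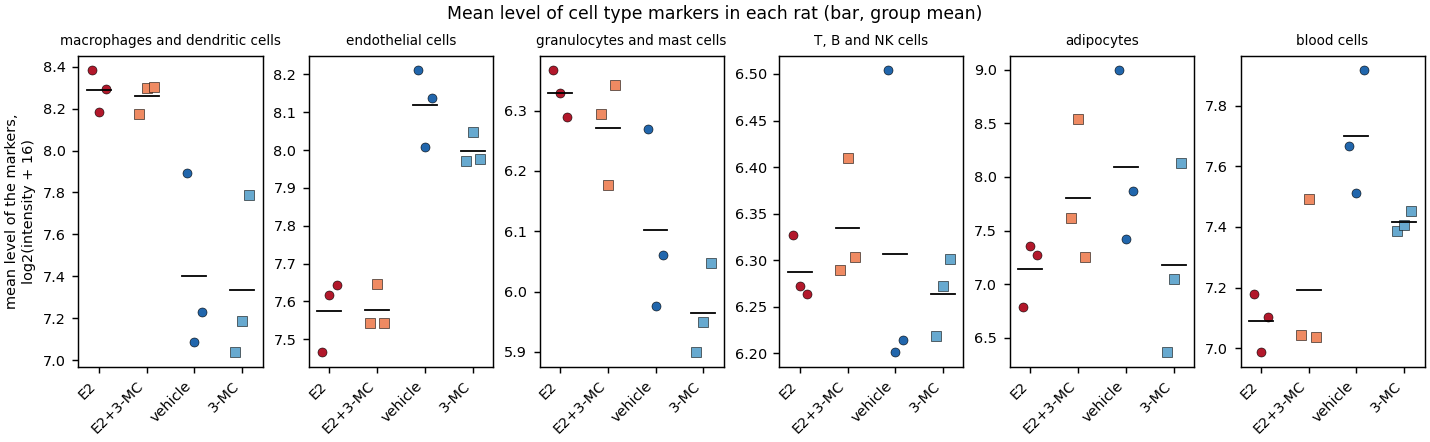
Mean level of the markers of 6 cell types in each rat, as log2(intensity + 16), with groups on the x axis, 1 point per rat and a bar at the group mean; each panel has its own y range, which does not start at 0. Macrophage markers (24 of 30 called higher) and endothelial markers (17 of 23 called lower) separate the arms, and adipocyte markers do not.

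Adipocyte markers varied between rats more than between arms. Their mean level ran from 6.79 to 8.54 with estradiol, against 6.36 to 8.99 without, and 2 of 18 rose and 2 fell. The highest level with estradiol was that of E2+3-MC rat 2, and the highest without was that of vehicle rat 1. Without both arrays 3 rose and 3 fell. In rats without 3-MC 1 rose and 4 fell, with a median difference of -0.997. In rats with 3-MC 2 rose and none fell, with a median of 0.498. The difference of the list between strata was not tested. Adipoq (adiponectin), at 2.14 ± 0.56, and Lpl (lipoprotein lipase), at -1.33 ± 0.45, were called in opposite directions with overlapping arms. Lpl kept its call in 12 of 24 other settings. Cyp1a1, the sentinel gene of the aryl hydrocarbon receptor, was dim in every rat, at 5.10, 5.31 and 5.61 with estradiol, against 4.95, 5.29 and 5.71 without (difference 0.00 ± 0.13), and Ahr, the receptor gene, fell by 0.23 ± 0.07, a call that was lost after median centring and on the deposited scale.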

How the data were processed

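Uterine RNA of 12 rats was read on Affymetrix arrays, per the labels' protocols. The authors deposited linear intensities per probe set, summarised with Affymetrix Expression Console and PLIER, per the submitters' processing notes; their versions and settings, and any genome build, are not stated there. Precision is limited by the number of arrays, and the median SE of the estradiol difference was 0.0956 (log2).

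Intensities were turned into log2(intensity + 16) and quantile-normalized over all 29214 probe sets. Of these, 15310 had 1 gene symbol and were tested, 323 had several and 13581 had none listed; 15303 matched RefSeq (GRCr8). A gene with several probe sets is represented by its brightest, by mean over the arrays; 416 of 527 such genes had the same call on each. With limma 3.58.1 in R 4.3.3 (lmFit, eBayes), estradiol and 3-MC were fitted together, two-sided, with Benjamini-Hochberg adjustment over the 15310, and the strata in a model of group means. Per the labels, each group holds samples of 3 different rats.

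Members and lists were chosen with earlier results of these data known. Genes are named by a rule: set markers; the 12 largest rises and falls without overlap; the 5 smallest adjusted p in each direction; up to 4 called members of each list; the 6 brightest genes with an interval within -0.2 to 0.2; and the 4 largest rises and falls called in neither stratum. Named outside it, after their values were seen, were 16 genes: Calr, Dnajc3, Hspa5, Canx, Bmal1, Clock, Npas2, Per1, Per2, Per3, Cry1, Cry2, Crabp2, Tgm2, Dhrs3 and Stra6. Mki67 had no probe set with a single symbol. Alternatives covered scaling, offset, filter, probe set choice, covariate, moderation, strata and each array left out; leaving out both doubted arrays was chosen after seeing the data.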

Additional observations from a re-analysis of the deposited data

Results flagged for a closer look

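For 143 named genes, each arm of 6 rats was searched for a rat far from the other 5, by the gap to its nearest neighbour divided by the range of the arm (Dixon's ratio, critical value 0.625). Chance gives about 1 such group in 20, and 37 of 286 groups passed. E2+3-MC rat 2 was the distant rat in 15 of them and vehicle rat 1 in 14, the arrays that also stood apart over all probe sets; the cause was not tested. In parentheses stand the ratio and, for these arrays, the estradiol difference with all rats and without both arrays (log2). Among the rats without estradiol, vehicle rat 1 was the highest for Ckb (0.733, 0.49, 0.71), Fos (0.718, 2.41, 2.65), Clca1 (0.638, 3.16, 3.33), Cdkn1c (0.798, -0.89, -0.71), Efemp1 (0.703, -1.77, -1.84), Frzb (0.818, 1.32, 1.44), Hsd11b1 (0.702, 1.05, 1.32), Bhlhe40 (0.722, 1.83, 2.00), S100a9 (0.645, 2.46, 2.88), Fam3b (0.765, 4.64, 4.75) and Rps29 (0.708, 0.02, 0.06). Among the rats with estradiol, E2+3-MC rat 2 was the lowest for Fos (0.726, 2.41, 2.65), Fam3d (0.657, 5.61, 5.70), Olfm4 (0.674, 4.89, 5.28), Krt8 (0.722, 2.44, 2.74), Cd55 (0.834, 2.41, 2.60), Isg15 (0.694, 2.11, 2.23), Idi1 (0.666, 2.68, 2.86), Gpx2 (0.64, 2.74, 2.85), S100a9 (0.756, 2.46, 2.88), S100a8 (0.701, 1.91, 2.41) and Acta2 (0.692, -0.01, 0.08). Among the rats with estradiol, E2+3-MC rat 2 was the highest for Vegfa (0.672, -0.67, -0.79), Id3 (0.75, -1.53, -1.53), Cd68 (0.674, 1.57, 1.63) and Dhrs3 (0.727, -1.42, -1.48). Among the rats with estradiol, E2+3-MC rat 1 was the highest for Pcna (0.64), Mcm6 (0.653) and Prc1 (0.667). Among the rats without estradiol, vehicle rat 1 was the lowest for Lrat (0.64, 2.57, 2.62), Luc7l3 (0.868, -0.67, -0.91) and Per3 (0.673, -0.75, -0.94). Among the rats with estradiol, E2 rat 2 was the lowest for Esr1 (0.747). Among the rats without estradiol, 3-MC rat 1 was the highest for Esr1 (0.679). Among the rats with estradiol, E2+3-MC rat 3 was the lowest for Pln (0.849). Among the rats without estradiol, 3-MC rat 1 was the lowest for Rps12 (0.764). Among the rats without estradiol, vehicle rat 3 was the highest for Per1 (0.743).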

How the results depend on the processing

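On the deposited scale, with no normalization between arrays, 3196 probe sets were called (1779 higher and 1417 lower) and the arms did not overlap for 1421. After median centring 3958 were called (2587 higher, 1371 lower) and 1798 did not overlap; the cause was not tested. With 3 rats on each side, the stratum with 3-MC (E2+3-MC against 3-MC) gave 2736 calls (1497 higher, 1239 lower) and the stratum without it 4337. Leaving out each array in turn gave 4869 to 6160 calls, and 0 to 3 for the difference between strata. Without vehicle rat 1 and E2+3-MC rat 2, chosen after seeing the data, 5130 probe sets did not overlap. A replicate block gave 5430 calls. Deviations from the group means correlated at a median of 0.0338 for the same rat number (-0.201 to 0.211). For different numbers the median was -0.0284 (-0.323 to 0.307). With 3 rats in a group, these values cannot tell whether the rat numbers pair the samples. Over 232 genes, the 216 of the naming rule and 16 outside it, the direction of a called gene turned in 1 case, Clock, which lay at 0.000885 after median centring; the cause was not tested. Gains and losses near the dim limit remain limited by signal over background: 397 called genes were dim in both arms.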
